A study of Mus musculus with 12 samples.

Results

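The Serpina genes described here are 10 genes for secreted serpins, chosen by gene symbol from the 54532 genes of the deposited table: Serpina1a, Serpina1b, Serpina1c, Serpina1d, Serpina1e, Serpina3k, Serpina3m, Serpina3n, Serpina6 and Serpina12. All lie in the clade A serpin cluster of mouse chromosome 12, and all 10 passed the filter on low levels that left 13447 genes for testing. The study measured polyadenylated liver RNA of Apoe knockout mice, which lack apolipoprotein E, taken after the mice had received an adeno-associated virus (AAV). In the Rspo2-AAV group (n = 6, numbered 1, 2, 4, 5, 6 and 7) the virus carried Rspo2, which encodes R-spondin 2, a secreted protein that strengthens Wnt signalling. In the Control group (n = 6, numbered 1 to 6) it carried Gfp, the gene of a fluorescent protein. Every library of both groups had the Apoe knockout genotype, and the labels give no age, sex, dose, promoter or time after injection. Whether each library is its own mouse is not stated in the labels, and the p-values below reflect library-to-library spread, which may be technical.

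Serpins are proteins with an exposed reactive centre loop that a target protease cuts. In the inhibitory members the cut makes the serpin fold over and trap the protease for good, so the letters of the loop decide which proteases are caught. The liver secretes most clade A serpins into blood: antitrypsins restrain neutrophil elastase, antichymotrypsin relatives restrain chymotrypsin-like proteases, and a few members carry hormones and inhibit nothing. Humans have SERPINA1 and SERPINA3 without such tandem copies, whereas mice carry each as a family of close neighbours.

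Those copies were compared in sequence before their levels, because nearly identical stretches cannot be told apart by a short read. Among Serpina1a to Serpina1e the coding sequences were 96.3 to 98.5% identical over 10 pairs (GENCODE M21 transcripts). The 60-base stretch where they differed most held 18 variable positions, against a median of 4 per stretch of that length, and encodes the reactive centre loop region. It is shown for every copy, in the coding direction (minus strand, GRCm38), with capitals at the positions that differ among the 5 copies.
Serpina1a chr12:103853757-103853816: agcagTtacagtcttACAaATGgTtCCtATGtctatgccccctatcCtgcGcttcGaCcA
Serpina1b chr12:103728324-103728383: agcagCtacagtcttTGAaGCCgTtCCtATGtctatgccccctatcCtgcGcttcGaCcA
Serpina1c chr12:103895094-103895153: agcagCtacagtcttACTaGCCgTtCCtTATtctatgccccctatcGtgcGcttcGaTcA
Serpina1d chr12:103763762-103763821: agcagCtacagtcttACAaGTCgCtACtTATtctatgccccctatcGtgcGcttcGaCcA
Serpina1e chr12:103947100-103947159: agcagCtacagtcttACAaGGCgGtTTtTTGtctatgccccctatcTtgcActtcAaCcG
At several positions in this stretch Serpina1e carried a letter that none of the other copies had, and Serpina1c and Serpina1d shared letters that set them apart from Serpina1a and Serpina1b. The corresponding stretch of the Serpina3 copies, on the plus strand, held 41 variable positions among 3 copies against a median of 9, and their coding sequences were 83.8 to 92.6% identical. Here capitals mark positions that differ among the 3 copies, and the Serpina3k stretch is shorter by 6 bases.
Serpina3k chr12:104345291-104345344: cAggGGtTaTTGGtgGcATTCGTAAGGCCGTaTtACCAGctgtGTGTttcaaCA
Serpina3m chr12:104393791-104393850: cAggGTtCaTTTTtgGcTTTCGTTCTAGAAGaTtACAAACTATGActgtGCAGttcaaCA
Serpina3n chr12:104413470-104413529: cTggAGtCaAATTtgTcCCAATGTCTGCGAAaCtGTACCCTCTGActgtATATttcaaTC
Serpina12 was 61.5 to 64.1% identical to the other members and Serpina6 61.9 to 65.8%, so these genes stand well apart from the copies. The read length is not given in the labels, so windows of 100 bases were used as a guide. Such a window had an exact match in a transcript of another gene for 69.3% of windows in Serpina1c, 49.9% in Serpina1a, 29.3% in Serpina1d, 20.6% in Serpina1b and 14.8% in Serpina1e. The share was 6.09% in Serpina3m, 4.85% in Serpina3k and 0.204% in Serpina3n, and no window of Serpina6 or Serpina12 was shared. Levels of Serpina1a and Serpina1c are therefore the least certain as values of 1 gene, and those of Serpina6 and Serpina12 the most certain.

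The 300 bases around a RefSeq start of a gene (250 before, 50 after; GRCm38.p6) were available for 7 of the 10 members. For Serpina1b and Serpina1e this start lies inside the gene span. The windows reach to 103738439 and 103957147, while the minus-strand spans begin at 103830373 and 103958975. Windows at those outer starts were not used. Among the Serpina1 promoters 91.7 to 98.4% of aligned bases were identical, and the Serpina1e promoter differed from that of Serpina1b by 4 bases in the aligned part. Over 241 positions shared by all 5 copies, 30 varied, and at 1 of these Serpina1e alone differed. The promoters of Serpina1e, Serpina1b and Serpina12 are shown in the direction of transcription. The levels of Serpina1e and Serpina12 changed most, and Serpina1b is the copy most like Serpina1e in this window. Capitals mark GTTAAT, the core of the site that the liver factor HNF1 binds, searched on both strands.
Serpina1e chr12:103956848-103957147: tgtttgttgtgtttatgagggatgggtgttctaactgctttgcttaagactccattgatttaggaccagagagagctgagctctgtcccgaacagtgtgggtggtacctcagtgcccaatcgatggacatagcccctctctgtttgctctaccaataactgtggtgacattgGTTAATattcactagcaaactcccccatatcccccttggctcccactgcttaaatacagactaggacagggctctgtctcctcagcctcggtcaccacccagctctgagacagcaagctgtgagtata
Serpina1b chr12:103738140-103738439: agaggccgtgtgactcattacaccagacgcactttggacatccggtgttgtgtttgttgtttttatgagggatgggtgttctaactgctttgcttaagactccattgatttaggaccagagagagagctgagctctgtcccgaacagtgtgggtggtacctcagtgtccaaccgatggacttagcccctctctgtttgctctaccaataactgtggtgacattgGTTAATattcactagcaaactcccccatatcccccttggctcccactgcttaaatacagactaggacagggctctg
Serpina12 chr12:104044394-104044693: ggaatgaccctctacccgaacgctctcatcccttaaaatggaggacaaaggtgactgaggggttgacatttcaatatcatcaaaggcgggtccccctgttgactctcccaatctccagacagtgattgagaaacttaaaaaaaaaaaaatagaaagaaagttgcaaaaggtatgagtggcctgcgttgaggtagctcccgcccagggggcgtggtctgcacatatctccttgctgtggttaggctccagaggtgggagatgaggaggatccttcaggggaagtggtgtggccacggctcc
GTTAAT was present in the promoters of all 5 Serpina1 copies, in neither Serpina12 nor Serpina3n, and in 7.10% of 32851 RefSeq promoters of the same length. The full HNF1 palindrome, the STAT-type motif TTCNNNGAA and TATAAA were found in 0 of the 7 promoters, against 0.00913%, 8.30% and 13.6% of all promoters. These are matches of letters in windows that share sequence, and a link between these windows and the levels was not tested.

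Libraries held 14332702 to 22195576 reads in the Rspo2-AAV group and 14295644 to 19015481 in the Control group, recovered from the deposited FPKM (fragments scaled to the length of the gene and the depth of the library). Rspo2 itself was at 49.9 to 573 FPKM in the Rspo2-AAV libraries and listed at 0 in all Control libraries. Library Rspo2-AAV 2 stood apart: it had the lowest Rspo2 level and the highest share of mitochondrial reads (10.5%). Xist was at 5.57 to 42.0 FPKM in Rspo2-AAV 1, Rspo2-AAV 2 and Control 3, and at or near 0 in the other libraries. In Rspo2-AAV 4, 6.27% of all reads fell on 12 acinar genes of the pancreas, and in Rspo2-AAV 5, 0.565% did. Where leaving out any of these libraries changed the call of a member, both values are given below.

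Within Apoe knockout livers, what did R-spondin 2 do to the secreted inhibitors? Serpina1e and Serpina12 fell in the Rspo2-AAV group, with Control means 9.15 and 10.6 times as high, or 32.1 and 15.3 times without Rspo2-AAV 2. Of 10 members, 2 were called lower and 0 higher by limma at an adjusted p under 0.05, where 5.20% of all tested genes were called, 2.65% lower and 2.55% higher. At an unadjusted p under 0.05 the members counted 5 lower and 2 higher, where 11.2% of all tested genes were lower and 10.3% higher. Limma-voom on the recovered reads called 3 members lower and 0 higher, where it called 2.02% of all tested genes lower and 2.26% higher. The median difference of the 10 members was -0.45 on the log2(FPKM + 0.5) scale, with 8 negative and 2 positive, against a median of 0.00 over all tested genes. Groups did not overlap for 1 member, Serpina12, where 3.24% of all tested genes showed no overlap. In bulk liver, fewer cells expressing a gene and less RNA per cell cannot be told apart.

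**Figure D1:**
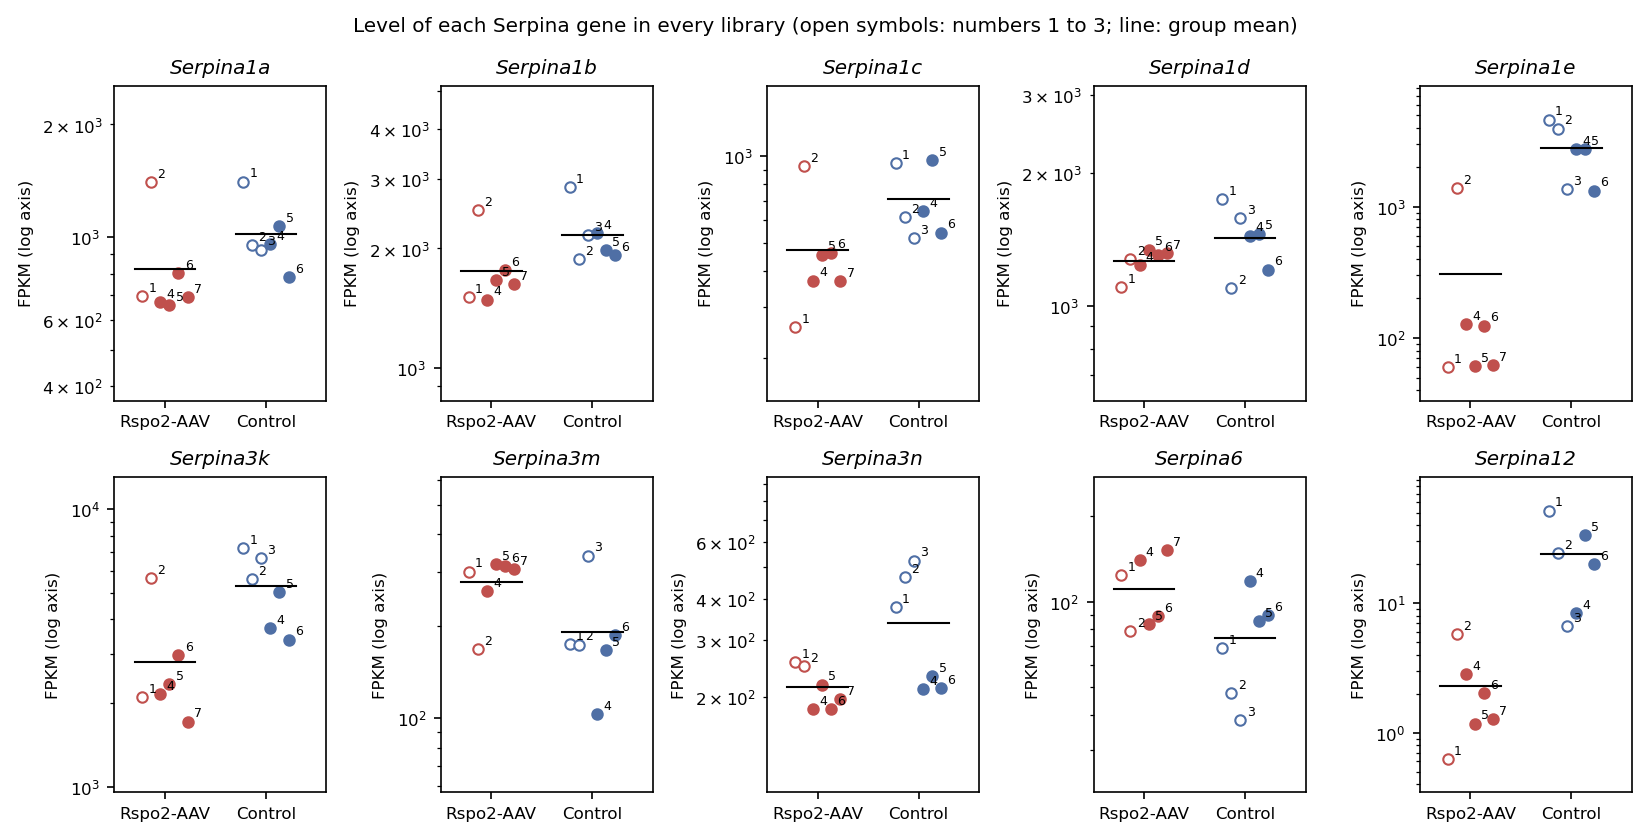
Level of each of the 10 Serpina genes in every library, in FPKM on a log axis, with Rspo2-AAV left and Control right; each symbol is a library, open symbols are libraries numbered 1 to 3 and the line is the group mean. For Serpina12 all 6 Rspo2-AAV libraries lie below all Control libraries, and for Serpina1e 5 of 6 do, with Rspo2-AAV 2 at 1394 FPKM as the exception.

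The antitrypsin copies come first. Serpina1e (ENSMUSG00000072849, chr12:103946931-103958975, minus strand) is a member of the mouse alpha-1-antitrypsin family whose loop differs from those of the other copies. Its level in the Rspo2-AAV libraries was 59.7, 1394, 127, 61.2, 124 and 61.9 FPKM in the order of their numbers, against 4611, 3934, 1352, 2756, 2748 and 1325 FPKM in Control libraries 1 to 6. Every Rspo2-AAV library except number 2 was below the lowest Control library, by a wide margin, and number 2 lay among the lowest Controls. The mean was 305 ± 534 FPKM in Rspo2-AAV livers and 2788 ± 1330 FPKM in Control livers (SD, n = 6 each), a Control mean 9.15 times as high. Without Rspo2-AAV 2 the Rspo2-AAV mean was 86.8 ± 35.5 FPKM (SD, n = 5) and the Control mean 32.1 times as high. Serpina1e fell by 4.25 on the log2 scale (SE 0.69, 95% interval -5.74 to -2.76; limma, adjusted p = 0.00488). Without that library the difference was -4.93 (limma, adjusted p = 3.1e-05). These levels rested on 1496 to 116827 reads per library. Ranked by mean level among 11377 tested protein-coding genes, Serpina1e was at place 169 in Rspo2-AAV livers and at place 20 in Control livers.

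The other antitrypsin copies, whose loop sequences also differ from each other, did not pass the test. Serpina1b (ENSMUSG00000071178, chr12:103728156-103830373) had a lowest, median and highest level of 1486, 1644 and 2494 FPKM in Rspo2-AAV libraries and of 1878, 2075 and 2853 FPKM in Control libraries. Its difference was -0.31 (SE 0.17, 95% interval -0.67 to 0.05; limma, adjusted p = 0.313). In 5 of 6 Rspo2-AAV libraries it was below the lowest Control library, and without Rspo2-AAV 2 the difference was -0.42 (limma, adjusted p = 0.0873). Serpina1a (ENSMUSG00000066366, chr12:103853589-103863562) had 659, 696 and 1401 FPKM as its lowest, median and highest level in Rspo2-AAV libraries and 784, 957 and 1408 FPKM in Control libraries. Its difference was -0.34 (SE 0.21, 95% interval -0.79 to 0.10; limma, adjusted p = 0.366), and 4 Rspo2-AAV libraries were below all Controls. Without Rspo2-AAV 2 it was -0.51 (limma, adjusted p = 0.0589).

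Serpina1d had the smallest difference of the 5 copies. Serpina1d (ENSMUSG00000071177, chr12:103763594-103773592), whose gene lies inside the span of Serpina1b without sharing an exon, had 1103, 1290 and 1341 FPKM as its lowest, median and highest level in Rspo2-AAV libraries and 1099, 1450 and 1743 FPKM in Control libraries. All 6 Rspo2-AAV libraries lay within the range of the Control libraries, and its difference was -0.16 (SE 0.14, 95% interval -0.46 to 0.15; limma, adjusted p = 0.572). Serpina1c (ENSMUSG00000079015, chr12:103894926-103904887), the copy with most shared windows, had 256, 414 and 928 FPKM in Rspo2-AAV libraries and 519.9, 633 and 974 FPKM in Control libraries, again as lowest, median and highest. Its difference of -0.65 (SE 0.28, 95% interval -1.25 to -0.05) did not pass (limma, adjusted p = 0.197), but passed without Rspo2-AAV 2 (-0.87, limma, adjusted p = 0.0325), where 6.72% of all tested genes and 4 of the 10 members were called. Of its 1361 exonic bases, 429 overlap the antisense gene B430119L08Rik, and no source used here says whether reads were counted by strand.

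Summing the copies avoids the question of which copy a counted shared read belongs to. Shared reads that were left out of the counts would be missing from the sum as well, and their handling is not given. The 5 antitrypsin genes together were at 4618 ± 1434 FPKM in Rspo2-AAV livers and 8101 ± 1998 FPKM in Control livers (SD, n = 6 each), a ratio of means of 0.570, or 0.499 without Rspo2-AAV 2. Without Serpina1e the sum was 4314 ± 914 FPKM in Rspo2-AAV livers and 5313 ± 900.1 FPKM in Control livers, a ratio of 0.812. Most of the difference in counted antitrypsin FPKM was thus in Serpina1e. If shared reads were left out, Serpina1c and Serpina1a would be undercounted more than Serpina1e, which has the fewest shared windows of the copies.

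The mix of copies shifted with it. Serpina1e made up 1.65, 18.6, 3.26, 1.46, 2.79 and 1.52% of the summed antitrypsin level in Rspo2-AAV libraries 1, 2, 4, 5, 6 and 7, against 39.9, 46.4, 20.7, 34.5, 33.4 and 22.9% in Control libraries 1 to 6. No Rspo2-AAV share reached the lowest Control share, although Rspo2-AAV 2 came close to it. Serpina1b made up 33.3 to 41.6% in Rspo2-AAV libraries and 22.1 to 33.2% in Control libraries. Serpina1a made up 15.8 to 19.3% in Rspo2-AAV libraries and 11.2 to 14.2% in Control libraries. Within a library the level of Serpina1e was 0.0457 to 1.09 times that of Serpina1d in the Rspo2-AAV group and 0.856 to 3.58 times in the Control group. Shares and ratios are descriptions, with no test, and they depend on how shared reads were counted.

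**Figure D2:**
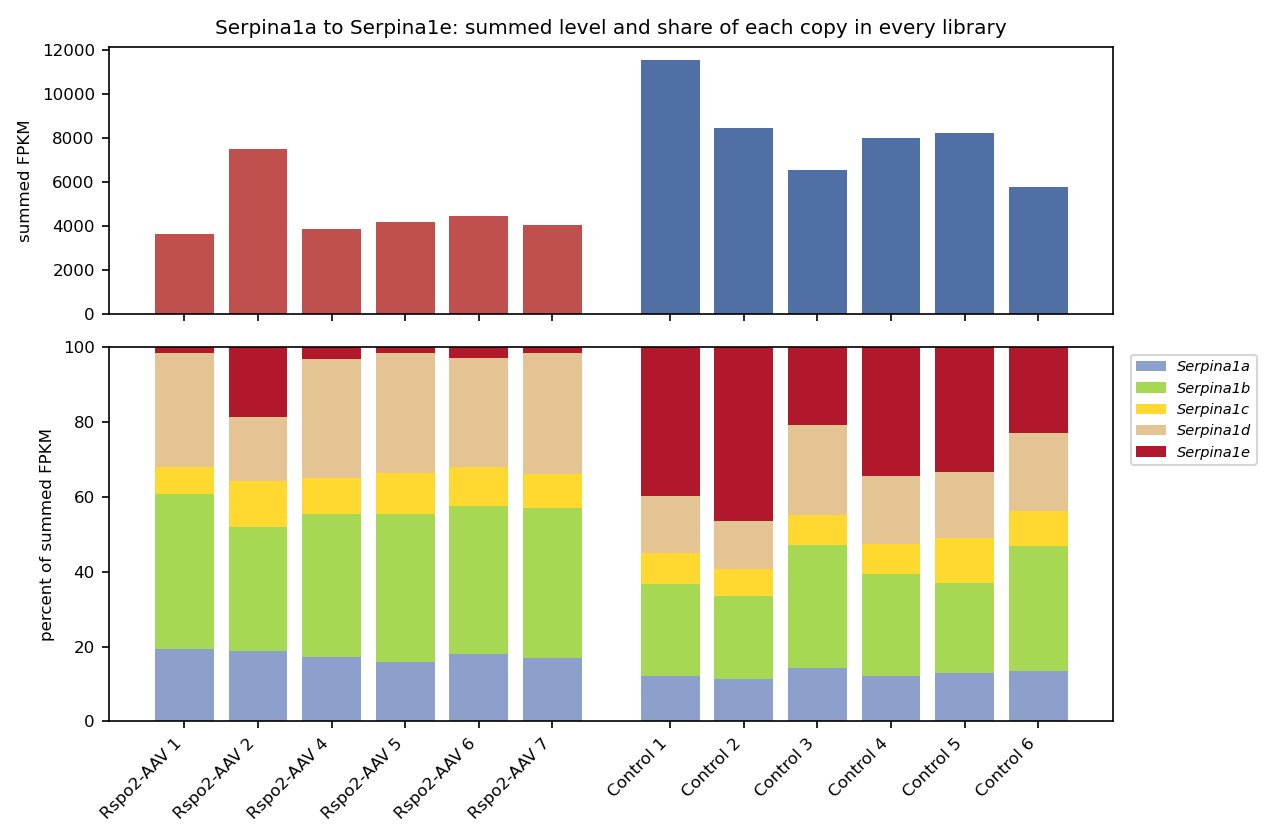
Summed FPKM of Serpina1a to Serpina1e in every library (upper bars, red for Rspo2-AAV and blue for Control) and the percent of that sum from each copy (lower stacked bars). The dark red Serpina1e share is 1.46 to 18.6% in Rspo2-AAV libraries and 20.7 to 46.4% in Control libraries.

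Among the tested antichymotrypsin relatives none was called with all 12 libraries, and only the difference of Serpina3m was positive. Serpina3k (ENSMUSG00000058207, chr12:104338486-104346144, plus strand), known as contrapsin or kallikrein-binding protein, was among the most abundant liver transcripts, at place 15 in Rspo2-AAV livers and place 7 in Control livers. Its level was 2101, 5644, 2149, 2336, 2975 and 1715 FPKM in Rspo2-AAV libraries, against 7215, 5597, 6677, 3726, 5035 and 3384 FPKM in Control libraries. All Rspo2-AAV libraries except number 2 were below the lowest Control library. The difference was -0.97 (SE 0.30, 95% interval -1.61 to -0.33) and missed the threshold (limma, adjusted p = 0.0795). It passed without Rspo2-AAV 2 (-1.19, limma, adjusted p = 0.0102), with limma-voom (adjusted p = 0.0387) and with TPM scaling (limma, adjusted p = 0.0437).

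Serpina3m and Serpina3n lay on opposite sides of zero. Serpina3m (ENSMUSG00000079012, chr12:104338486-104394257), a Serpina3k neighbour that shares 60 exonic bases with it, had 169, 305 and 320.0 FPKM as lowest, median and highest level in Rspo2-AAV libraries and 103, 175 and 341 FPKM in Control libraries. Its difference was 0.61 (SE 0.25, 95% interval 0.07 to 1.14; limma, adjusted p = 0.180). Without Control 3, the highest Control library, it passed (0.79, limma, adjusted p = 0.0395), where 6.79% of all tested genes were called. The ratio of Serpina3k to Serpina3m within a library was 5.56 to 9.43 in Rspo2-AAV libraries other than number 2, which had 33.4, and 18.1 to 41.3 in Control libraries.

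Serpina3n (ENSMUSG00000021091, chr12:104406729-104414329), an acute-phase serpin that inhibits granzyme B in mice, differed by library number within both groups. It had 256, 249, 184, 218, 183 and 197 FPKM in Rspo2-AAV libraries, against 378, 467, 525, 211, 232 and 213 FPKM in Control libraries. Controls 1 to 3 were higher than all Rspo2-AAV libraries and Controls 4 to 6 were among them. Rspo2-AAV 1 and 2 were the highest of their group, and 3 Rspo2-AAV libraries were below every Control. The difference was -0.57 (SE 0.24, 95% interval -1.09 to -0.04; limma, adjusted p = 0.199). With a term for numbers 1 to 3 against 4 to 7 it was -0.44 (SE 0.14; limma, adjusted p = 0.0879). In numbers 4 to 7 alone it was -0.17 (limma, adjusted p = 0.252). All 14 Serpina3 genes of the table summed to 3321 ± 1410 FPKM in Rspo2-AAV livers and 5813 ± 1699 FPKM in Control livers (SD, n = 6 each), a ratio of 0.571, or 0.477 without Rspo2-AAV 2.

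The hormone carrier Serpina6 and the adipokine Serpina12 complete the set. Serpina6 (ENSMUSG00000060807, chr12:103646630-103657212, minus strand) encodes corticosteroid-binding globulin, which carries corticosterone in mouse blood. It had 79.1, 107 and 152 FPKM as lowest, median and highest level in Rspo2-AAV libraries and 38.2, 77.0 and 118 FPKM in Control libraries, and 3 Rspo2-AAV libraries exceeded every Control. The difference was 0.63 (SE 0.27, 95% interval 0.04 to 1.21) and did not pass (limma, adjusted p = 0.206).

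Serpina12 (ENSMUSG00000041567, chr12:104028769-104044443, minus strand) encodes vaspin, first known from visceral fat, an inhibitor of kallikrein 7. It had 0.623, 5.80, 2.83, 1.18, 2.01 and 1.27 FPKM in Rspo2-AAV libraries 1, 2, 4, 5, 6 and 7, against 51.9, 24.5, 6.68, 8.37, 33.6 and 20.1 FPKM in Control libraries 1 to 6. The groups did not overlap, although Rspo2-AAV 2 and Control 3 lay close together. The mean was 2.29 ± 1.89 FPKM in Rspo2-AAV livers and 24.2 ± 16.9 FPKM in Control livers (SD, n = 6 each), a Control mean 10.6 times as high. Serpina12 fell by 3.06 on the log2 scale (SE 0.51, 95% interval -4.16 to -1.95; limma, adjusted p = 0.00602). It rested on 58 to 2540 reads per library, far fewer than Serpina1e, but on reads that no other transcript shares over 100 bases. Ranked among 11377 protein-coding genes it was at place 8066 in Rspo2-AAV livers and place 1725 in Control livers. Adiponectin and 3 other adipocyte markers summed to 0.0914 to 0.993 FPKM in Rspo2-AAV libraries and 0.131 to 0.986 FPKM in Control libraries, and 0 of 4 passed the level filter.

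Along the chromosome the changed genes were close but not contiguous. The cluster held 28 clade A genes over 799544 bases (chr12:103614786-104414329), of which 15 were tested. Serpina1e, Serpina12 and the pseudogene Serpina4-ps1 (chr12:104080649-104086724) stood at places 9, 12 and 13 in the order of starts. Serpina4-ps1 had 2.52, 29.9, 16.5, 2.55, 7.58 and 0.884 FPKM in Rspo2-AAV libraries, against 84.1, 83.5, 40.9, 115, 346 and 53.0 FPKM in Control libraries, with no overlap. It fell by 3.92 on the log2 scale (SE 0.72; limma, adjusted p = 0.00882). Its Control mean was 20.1 times as high as its Rspo2-AAV mean without Rspo2-AAV 2 and 7.55 times without Control 5. Between them Serpina9 was under the level filter and Serpina11 was at 20.3 ± 22.5 FPKM in Rspo2-AAV livers and 28.1 ± 8.04 FPKM in Control livers (SD, n = 6 each; difference -0.86, limma, adjusted p = 0.271). Rspo2-AAV 2 alone had 65.9 FPKM of Serpina11, and without that library the difference passed (-1.28, limma, adjusted p = 0.00690). Of 17 tested genes within 1 Mb outside the cluster, limma called 0 higher and 0 lower, against 2.55% and 2.65% of all tested genes. At an unadjusted p under 0.05, 1 was higher and 3 lower, against 10.3% and 11.2% of all tested genes. Limma-voom called 0 of them, against 2.26% higher and 2.02% lower of all tested genes. The median difference of the 17 genes was -0.09.

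**Figure D3:**
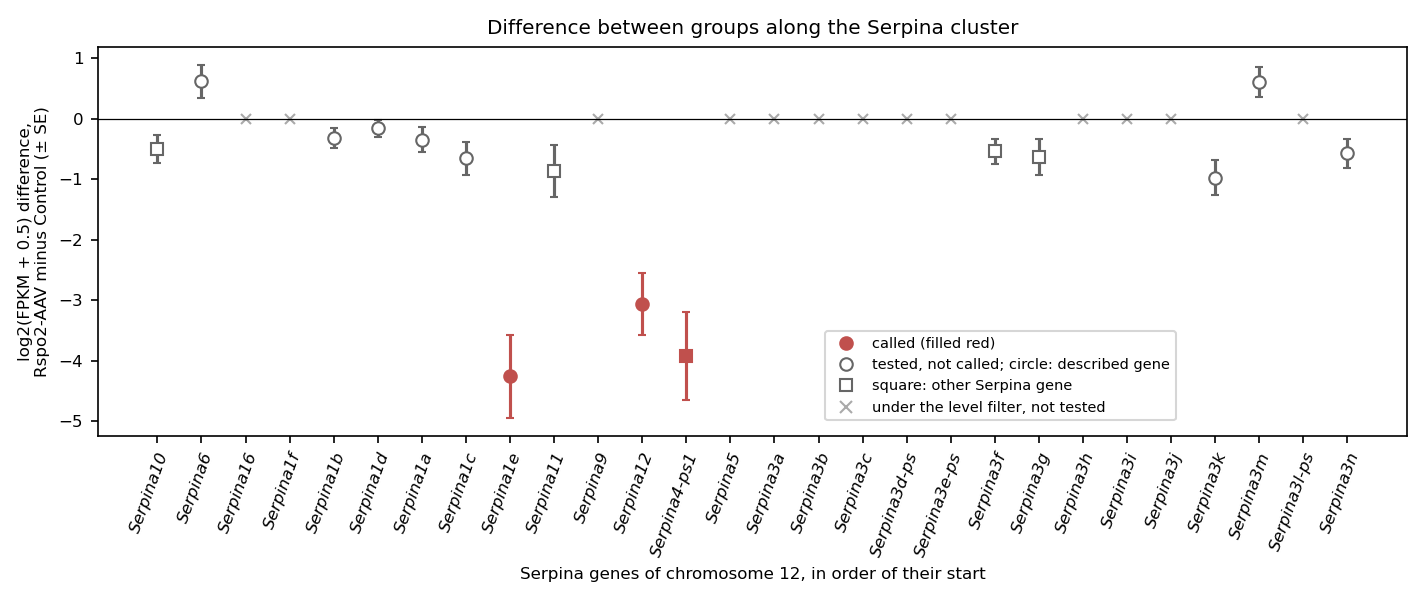
Difference in log2(FPKM + 0.5), Rspo2-AAV minus Control, with its SE, for the 28 clade A serpin genes of chromosome 12 in the order of their starts; filled red symbols were called, open ones tested and not called, crosses not tested. Serpina1e (-4.25), Serpina12 (-3.06) and Serpina4-ps1 (-3.92) are the 3 called genes, while Serpina1a to Serpina1d lie between -0.65 and -0.16.

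Clade A holds other tested genes as well. Serpina10, the protein Z-dependent inhibitor of factor X, was at 51.3 ± 3.65 FPKM in Rspo2-AAV livers and 78.2 ± 36.6 FPKM in Control livers (limma, adjusted p = 0.233). Serpina3f and Serpina3g were low, at 1.58 ± 0.531 and 5.70 ± 2.59 FPKM in Rspo2-AAV livers against 2.51 ± 0.763 and 8.86 ± 2.89 FPKM in Control livers, and neither passed (limma, adjusted p = 0.167 and 0.234). Serpina7, the thyroxine-binding globulin gene of chromosome X, had 61.1 ± 20.5 FPKM in Rspo2-AAV livers and 19.9 ± 9.27 FPKM in Control livers, with no overlap, and narrowly missed the threshold (1.84, SE 0.51; limma, adjusted p = 0.0539). It passed without Control 3, its lowest library (1.31; limma, adjusted p = 0.00552), and without Control 1 (2.01; limma, adjusted p = 0.0472). Control 3 (2.15 FPKM), Rspo2-AAV 1 (36.6 FPKM) and Rspo2-AAV 2 (41.1 FPKM) were the lowest of their groups for Serpina7. They are also the libraries with Xist over 1 FPKM, and a link was not tested. Serpina7 is, like Serpina6, a hormone carrier, but neither passed with all 12 libraries. The unadjusted 95% intervals of both differences lay above zero, as did that of the antichymotrypsin relative Serpina3m (0.07 to 1.14).

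Among the serpins of other clades 14 of 39 genes were tested, and limma called 3 lower and 0 higher, against 2.65% and 2.55% of all tested genes. At an unadjusted p under 0.05 they counted 6 lower and 0 higher, against 11.2% and 10.3% of all tested genes, and by limma-voom 1 lower and 0 higher, against 2.02% and 2.26%. Serpind1, heparin cofactor II, which inhibits thrombin, was at 170.0 ± 16.7 FPKM in Rspo2-AAV livers and 234 ± 22.5 FPKM in Control livers and fell by 0.46 (limma, adjusted p = 0.0303). Serpine2, protease nexin 1, was at 0.979 ± 0.624 FPKM in Rspo2-AAV livers and 3.91 ± 2.11 FPKM in Control livers and was called lower (limma, adjusted p = 0.0303). Serpinb9, an intracellular granzyme B inhibitor, was at 2.75 ± 0.407 FPKM in Rspo2-AAV livers and 3.84 ± 0.486 FPKM in Control livers and fell by 0.42 (limma, adjusted p = 0.0449). None of these decreases was near that of Serpina1e on the same scale.

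**Figure D4:**
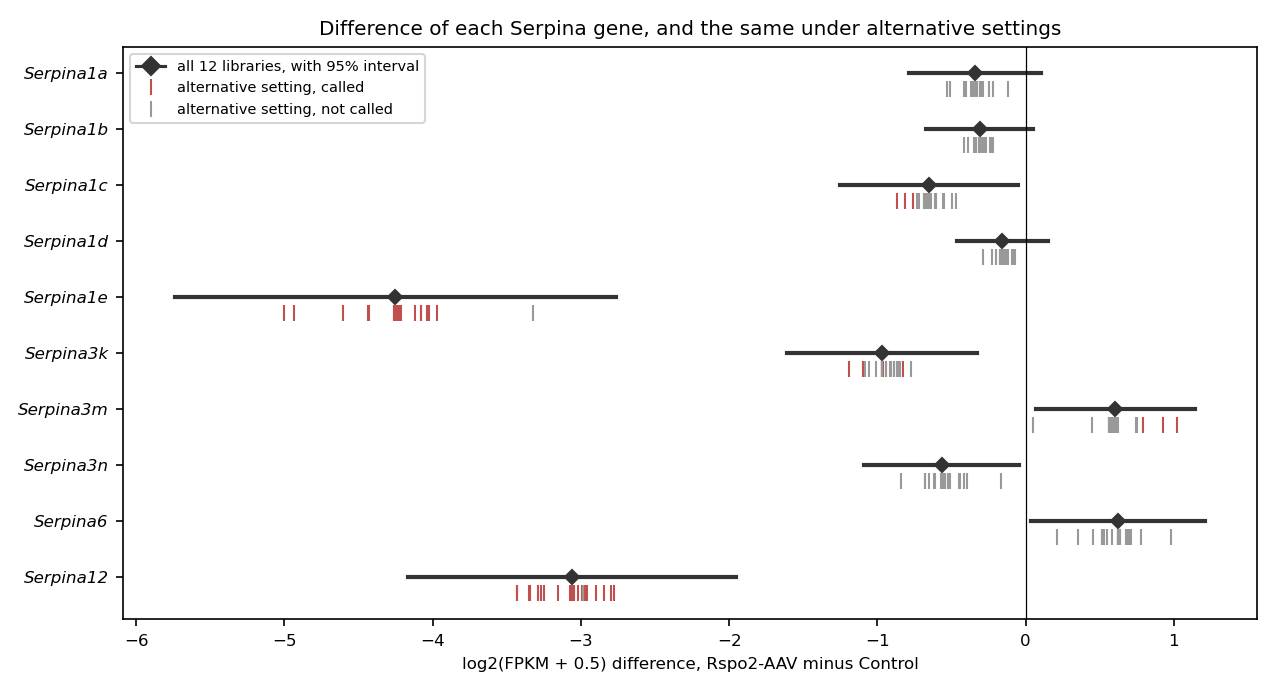
Difference in log2(FPKM + 0.5), Rspo2-AAV minus Control, of each Serpina gene with its 95% interval (diamond and bar), and below it the same difference under 24 alternative settings (ticks, red where called). Serpina1e and Serpina12 are called in 23 of 24 settings, Serpina3k in 5, Serpina1c and Serpina3m in 3 each and the other members in 0.

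The libraries of a group did not deviate alike for all members. In log2(FPKM + 0.5), Rspo2-AAV 2 lay above its group mean by 3.41 for Serpina1e, 1.41 for Serpina12, 1.12 for Serpina3k, 1.09 for Serpina1c and 0.83 for Serpina1a. It lay 0.02 above for Serpina1d and below for Serpina3m (-0.69) and Serpina6 (-0.44). For every member except Serpina12 it was within the range of the Control libraries. For Serpina1b, Serpina1c, Serpina1e and Serpina3k it was the only Rspo2-AAV library in that range. It also had the lowest Rspo2 level of its group. Rspo2-AAV 1 had the next lowest Rspo2 level (122 FPKM) and the lowest levels of Serpina1e and Serpina12. A link to the Rspo2 level was not tested. In the Control group, Control 3 and Control 4 were low in Serpina12 (-1.46 and -1.15), and Control 3 was high in Serpina3m (0.92) and Serpina3n (0.74).

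**Figure D5:**
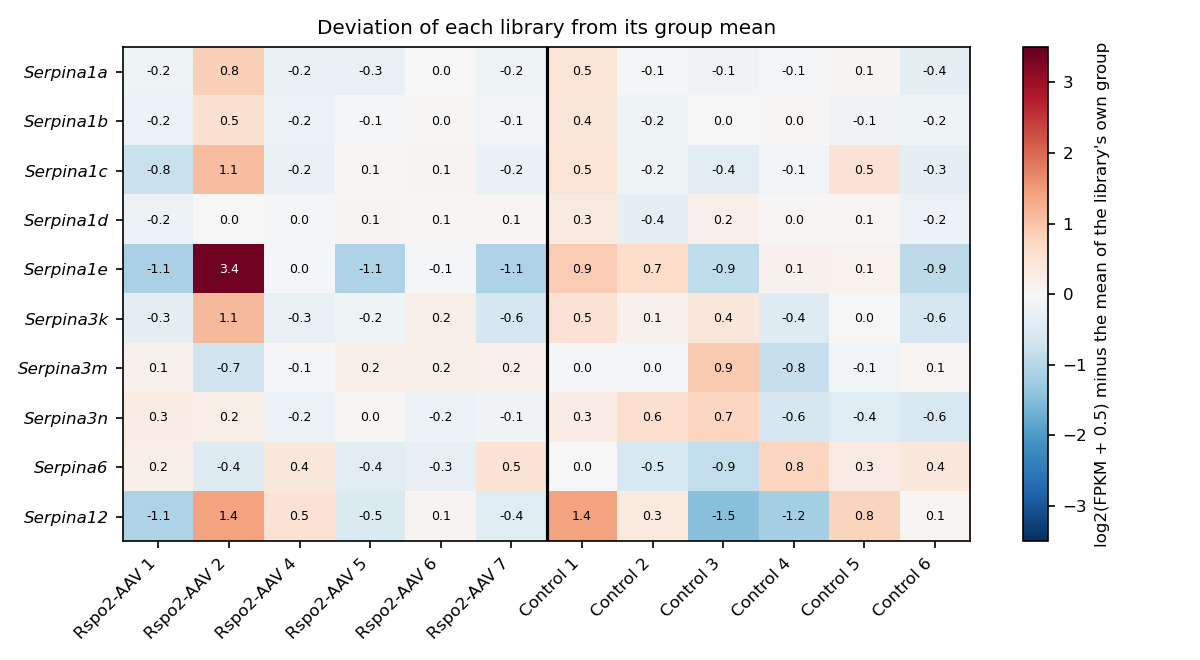
Deviation of each library from the mean of its own group in log2(FPKM + 0.5), genes in rows and libraries in columns, Rspo2-AAV left and Control right; red is above and blue below the group mean. Rspo2-AAV 2 is red for Serpina1e (3.41), Serpina12 (1.41) and Serpina3k (1.12) and near zero for Serpina1d (0.02).

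Genes with a pattern like that of the called members were looked for among 11362 tested protein-coding genes outside the Serpina family. Over the 12 libraries, which include both groups and Rspo2-AAV 2, log2 levels of Serpina1e were most like those of Rida (Pearson r = 0.99), C1ra (0.97) and Arsg (0.96). Rida had 36.1 to 41.8 FPKM in Rspo2-AAV libraries other than number 2, which had 89.6 FPKM, and 109 to 144 FPKM in Control libraries. Levels of Serpina12 were most like those of Mup1, Slc22a7 and Selenbp2 (r = 0.98 each). Mup1, a major urinary protein gene, had at most 6.41 FPKM in Rspo2-AAV libraries and 4.42 to 67.0 FPKM in Control libraries, and in both groups its lowest and highest libraries were those of Serpina12. With the group means removed, Serpina1e was most like Ubl7 (0.96), Rida (0.95) and Ambp (0.95), and Serpina12 most like Cmpk1 (0.97), Acsm1 (0.97) and Serpine2 (0.96). These coefficients describe 12 libraries that share a group difference or a deviating library.

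Regulators and partners of these serpins were counted list by list. Of 15 regulators of liver serpin transcription, limma called 0 higher and 0 lower (0 higher and 2 lower at an unadjusted p under 0.05, limma-voom 0), with a median difference of -0.02. Cebpa was at 247 ± 53.8 FPKM in Rspo2-AAV livers and 283 ± 50.5 FPKM in Control livers (limma, adjusted p = 0.553), and Cebpb at 182 ± 92.7 FPKM in Rspo2-AAV livers and 157 ± 68.6 FPKM in Control livers (limma, adjusted p = 0.777). Of 19 interleukin-6 response and acute-phase genes 0 were called (1 higher and 2 lower at an unadjusted p under 0.05, 1 lower by limma-voom), with a median of -0.17. Haptoglobin, Hp, was at 3152 ± 1050 FPKM in Rspo2-AAV livers and 3861 ± 1607 FPKM in Control livers (limma, adjusted p = 0.698), and hemopexin, Hpx, at 2467 ± 608 FPKM in Rspo2-AAV livers and 4409.7 ± 1510.1 FPKM in Control livers (limma, adjusted p = 0.0847).

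Of 10 glucocorticoid-response genes limma called 0 higher and 1 lower, but 8 differences were positive and 2 negative, with a median of 0.23. At an unadjusted p under 0.05 the list counted 1 higher and 1 lower, and by limma-voom 0 higher and 1 lower. Summed levels were 994 to 1709 FPKM in Rspo2-AAV libraries and 496 to 1969 FPKM in Control libraries, where Control 3 was the highest and Control 4 the next, at 601 FPKM. The called gene was Hsd11b1, which regenerates active corticosterone in liver cells, at 39.0 ± 7.43 FPKM in Rspo2-AAV livers and 81.3 ± 15.0 FPKM in Control livers, a fall by 1.05 (limma, adjusted p = 0.00304). Of 14 genes for serpin folding, export and clearance 0 were called, at an unadjusted p under 0.05 or by limma-voom included, with a median of -0.19. Of 8 tested proteases and partners 1 was called, lower: F11, coagulation factor XI, at 24.8 ± 7.02 FPKM in Rspo2-AAV livers and 42.0 ± 3.33 FPKM in Control livers, a fall by 0.79 (limma, adjusted p = 0.0171). Klk7, the kallikrein that vaspin inhibits, was under the level filter.

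Zonation and marker lists moved beside Serpina1e and Serpina12. Pericentral hepatocyte genes, which Wnt signalling sustains, were called higher for 8 of 10 and lower for 0 (9 and 0 at an unadjusted p under 0.05 and by limma-voom; median 1.38), among them Slc1a2 (1.49), Axin2 (1.41) and Tbx3 (1.48). Periportal hepatocyte genes were called lower for 6 of 10 (median -1.73), among them Cyp2f2 (-5.42), Hsd17b13 (-4.26) and Cdh1 (-2.25). The other direction was also present: 2 of the 10 differences were positive, and at an unadjusted p under 0.05 the list counted 7 lower and 1 higher and by limma-voom 6 lower and 1 higher. Ass1, an enzyme of the urea cycle named here after its values were seen, was at 1535 ± 548 FPKM in Rspo2-AAV livers and 721 ± 311 FPKM in Control livers (1.10; limma, adjusted p = 0.0585). Summed pericentral levels did not overlap, at 8526 to 12331 FPKM in Rspo2-AAV libraries and 4357 to 6238 FPKM in Control libraries, and Rspo2-AAV 2 was at 11442 FPKM, well inside its group, unlike for Serpina1e. Summed periportal levels overlapped, at 1885 to 3903 FPKM in Rspo2-AAV libraries and 2808 to 5248 FPKM in Control libraries. That sum includes the abundant Ass1, whose mean was higher, beside genes that fell, so it does not show the size of their fall.

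Hepatocyte markers were called for 0 of 5 (0 higher and 2 lower at an unadjusted p under 0.05, limma-voom 0), with Alb at 12860 ± 2515 FPKM in Rspo2-AAV livers and 20512 ± 7578 FPKM in Control livers (limma, adjusted p = 0.184). Kupffer cell and macrophage markers were called lower for 2 of 6, with summed levels of 227 to 444 FPKM in Rspo2-AAV libraries and 349 to 740 FPKM in Control libraries. Hepatic stellate cell markers were called lower for 2 of 5, at 15.6 to 28.8 FPKM in Rspo2-AAV libraries and 35.2 to 50.4 FPKM in Control libraries, without overlap. Erythroid markers were called higher for 2 of 4, at 207 to 1203 FPKM in Rspo2-AAV libraries and 93.0 to 328 FPKM in Control libraries. None of these lists had a gene at 0 in every library, and their part in the serpin differences was not tested.

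Acinar genes summed to 3.99 to 53173 FPKM in Rspo2-AAV libraries and 4.34 to 16.0 FPKM in Control libraries. Without Rspo2-AAV 4 and 5 Serpina1e was at -3.97 and Serpina12 at -3.06 (limma, adjusted p = 0.0364 and 0.0359). Genes known to be male-high in mouse liver summed to 143 FPKM in Rspo2-AAV 1 and 263 FPKM in Control 3, against 2055 to 4329 FPKM in the other Rspo2-AAV libraries and 2949 to 6081 FPKM in the other Control libraries. Female-high genes summed to 489 FPKM in Rspo2-AAV 1, 110 FPKM in Rspo2-AAV 2 and 470.0 FPKM in Control 3, and to less than 1 FPKM elsewhere. Without those 3 libraries Serpina1e was at -5.00 and Serpina12 at -3.43 (limma, adjusted p = 9.5e-05 and 0.00139), where 12.8% of all tested genes were called. In that comparison of 4 Rspo2-AAV with 5 Control libraries Serpina3k (-1.09) and Serpina1c (-0.81) were also called lower and Serpina3m (0.93) higher.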

How the data were processed

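Values were the authors' deposited FPKM per gene for all 12 libraries, in 1 table. HISAT2 2.0.5, featureCounts 1.5.0-p3, DESeq2 1.20.0 and the GRCm38 (mm10) build are named in the submitters' processing notes, and the annotation, the handling of reads that fit several copies and the strand setting are not given in the sources used here. The deposited gene lengths equal the union of GENCODE M21 exons for all 10 members. FPKM times length came out as whole reads (tolerance 0.01) for 100% of values, which gave the read numbers and depths. Genes averaging 0.5 FPKM or more over the 12 libraries were tested with limma 3.58.1 (R 4.3.3; trend) on log2(FPKM + 0.5), with Benjamini-Hochberg adjustment over 13447 genes. A fold on this scale understates the change of low genes. On simulated data with 200 changed genes and the same group sizes, 75.2% of genes changed 2-fold and 91.9% of those changed 4-fold were found again. Of the 175 calls made, 8 were wrong. The simulation drew independent normal values for each gene, with no deviating library. These shares therefore need not hold for the real libraries.

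The 10 members, the lists and the alternatives were chosen with earlier results of these data known. All members, all tested clade A genes, up to 4 called genes of each list by smallest p (otherwise the 2 with the highest mean) and the 3 genes most like each called member were named. Alternatives were limma-voom on recovered reads, pseudocounts of 0.1 and 1 FPKM, other filters, TPM scaling, leaving out libraries, the numbers as a block, and numbers 1 to 3 or 4 to 7 alone or as a term. The numbers shared by the groups were checked for pairing. Copies were aligned with MAFFT 7.526. RefSeq promoters were matched by symbol for 7 members, and protein sequences and the other promoters were not used here.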

Additional observations from a re-analysis of the deposited data

Results flagged for a closer look

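The gap of a library to its nearest neighbour was taken in FPKM, without logs, and divided by the range of the group. Of 32 groups of 6 libraries (16 tested clade A genes), 10 had a library with a gap over Dixon's critical value of 0.625. Of these, 6 were Rspo2-AAV 2 as the highest of its group: Serpina1a at 1401 FPKM (next library 801), Serpina1b at 2494 FPKM (next 1762), Serpina1c at 928 FPKM (next 464), Serpina1e at 1394 FPKM (next 127), Serpina3k at 5644 FPKM (next 2975) and Serpina11 at 65.9 FPKM (next 16.3). Serpina1d, Serpina3m, Serpina3n, Serpina6 and Serpina12 had no such gap in that library. Control 1 was the highest of its group for Serpina1b, at 2853 FPKM (next 2189). Control 3 was the highest for Serpina3m, at 341 FPKM (next 187), and the lowest for Serpina7, at 2.15 FPKM (next 20.4). Control 5 was the highest for Serpina4-ps1, at 346 FPKM (next 115). About 1 group in 20 exceeds Dixon's value for independent normal values. These genes share libraries and reads, and FPKM were not log-transformed, so that rate does not apply here. The cause of the gaps was not tested.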

How the results depend on the processing

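No member and no other tested clade A serpin changed its sign in any of the 24 alternatives. Over all genes, limma called 343 higher and 356 lower. Those numbers were 195 and 216 without a filter, 197 and 183 with TPM scaling, 117 and 120 without Rspo2-AAV 4 and 5, 807 and 908 without the libraries with Xist over 1 FPKM, 853 and 931 in numbers 4 to 7 alone, and 0 and 0 in numbers 1 to 3 alone (2 Rspo2-AAV and 3 Control libraries; 955 at an unadjusted p under 0.05, 3 of them members). Leaving out each library in turn gave 162 to 421 higher and 170 to 492 lower, and Controls 2, 4, 5 and 6 and Rspo2-AAV 5, 6 and 7 each moved a count by over 1.5 times. Members called higher numbered 0, and 1 in numbers 4 to 7 alone, without the Xist libraries and without Control 3. Members called lower numbered 2, then 4 in numbers 4 to 7 alone, 4 without the Xist libraries and 0 in numbers 1 to 3 alone, and 2 to 4 when each library was left out, with 4 without Rspo2-AAV 2. The background there was 6.72% without Rspo2-AAV 2, 12.8% without the Xist libraries and 13.3% in numbers 4 to 7 alone. Serpina1e ranged from -5.00 to -3.33 and Serpina12 from -3.43 to -2.78, and neither passed in numbers 1 to 3 alone (-3.33 and -2.99; adjusted p = 0.700 and 0.687). Deviations of libraries with the same number correlated at -0.25 to 0.16, and only for number 4 was the best match its own number. These correlations cannot decide whether the libraries were paired by design. With the number as a replicate block over numbers 1, 2, 4, 5 and 6, 145 genes were called higher and 152 lower, and Serpina1e (-4.21, adjusted p = 0.0287) and Serpina12 (-3.27, adjusted p = 0.0407) passed while Serpina4-ps1 (-3.72, adjusted p = 0.0507) did not. Serpina7 passed in 5 alternatives. Fewer libraries, and low read numbers for Serpina12, limit these values, and the causes were not tested.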
